A study of Mus musculus with 34 samples.

Results

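Mixl1, Eomes, Msgn1, Tbx6, Mesp1, Gsc, Evx1 and Lhx1 are transcription factor genes that mark the primitive streak and the mesoderm that leaves it. They were picked by name, as the entries of the gene table whose symbol equals 1 of these names, and make up 8 of its 24103 entries. The data are RNA-seq levels, in FPKM (fragments mapped to a gene, scaled to its transcript length and to the fragments of the library), in 34 mouse libraries of 9 groups. The 25 libraries of the differentiation course come from CBMS1 embryonic stem cells, a line of the CBA/MsM background, and no group carries a genetic change by the labels. The stem cells (ESC day 0, 3 libraries) were kept in 2i/LIF, a medium with a pair of kinase inhibitors and leukaemia inhibitory factor. From them came epiblast-like cells (EpiLC day 2, 5 libraries). These were then aggregated at 2000 cells per well as embryoid bodies (EB) in GK15 medium with no added factor, sampled at EB day 3, 4, 5 and 6 (3 libraries each) and EB day 7 (5 libraries). Days are counted from the stem cells. Epiblast stem cells (EpiSC, 3 libraries of female cells labelled C57BL6) were grown in Activin and FGF on feeder fibroblasts. Mouse embryonic fibroblasts (MEF, 6 libraries labelled C57BL6) came from 12.5-day embryos as 2 cultures, each sampled at passages 0, 1 and 2. Each of the differentiation course and the EpiSC group therefore stands for 1 cell line.

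In the embryo the streak forms where Nodal, Wnt, BMP and FGF signals meet in the posterior epiblast, and cells passing through it become mesoderm and definitive endoderm. Eomes and Mixl1 belong to its early phase, Gsc and Lhx1 to its anterior end and the organizer, Evx1 to its posterior end, Msgn1 and Tbx6 to the presomitic mesoderm, and Mesp1 to the nascent mesoderm that supplies the heart. The labels liken the aggregate culture to a serum-free method for neural differentiation. Some of them (Evx1 and Lhx1 in spinal interneurons, Lhx1 in the kidney) are used again later in other tissues.

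The marker genes were present in the groups they are known for, though most were not confined to them. Klf4 was at 103 to 139.5 FPKM in ESC libraries, Fgf5 at 17.6 to 30.9 FPKM in EpiLC libraries, Sox1 at 13.4 to 20.7 FPKM in EB day 7 libraries, and Col1a1 at 3499 to 4882 FPKM in MEF libraries. Pou5f1 was at 455 to 938 FPKM in EpiSC libraries. Each library had 11303 to 12212 genes at 1 FPKM or more, and the lowest correlation between libraries of a group was 0.960, in EpiSC. EB day 3 replicate 3 stood apart in its summed FPKM (990700, against 485700 to 734800 in the other libraries), and every call made for a member was kept without it. In 9 of the 20 libraries of dated courses the cell type field names another stage than the title does, and the title was followed. All ESC and MEF libraries belong to one sequencing project and all EpiSC libraries to another, so that EpiSC against MEF and project cannot be told apart.

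Most of the 8 genes described a short wave. Gsc was also at 46.9% of its highest mean both in ESC and at EB day 6, and Mesp1 stayed too low to be kept by the filter. The group mean over days 0 to 7 was highest at EB day 5 for Mixl1, Msgn1, Tbx6, Mesp1, Gsc, Evx1 and Lhx1, and at EB day 4 for Eomes. Of the 14595 genes that reached 1 FPKM in at least 3 libraries, 9.89% had their highest mean at EB day 5 and 6.34% at EB day 4. For Msgn1, Tbx6, Gsc, Evx1 and Lhx1 every EB day 5 library lay above every library of the other 8 groups, which held for 1.34% of those genes. For Eomes every EB day 4 library lay above all others, which held for 0.26% of them. Each library is RNA of bulk cells, in which fewer cells of a type and less RNA per cell cannot be told apart. By limma's F test over days 0 to 7, Mixl1, Eomes, Tbx6, Gsc and Lhx1 changed, as did 54.6% of genes. Msgn1 and Evx1 passed the filter only through their EB day 5 libraries, so that their change over the course and their place at EB day 5 followed from the filter and are given as a description.

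**Figure D1:**
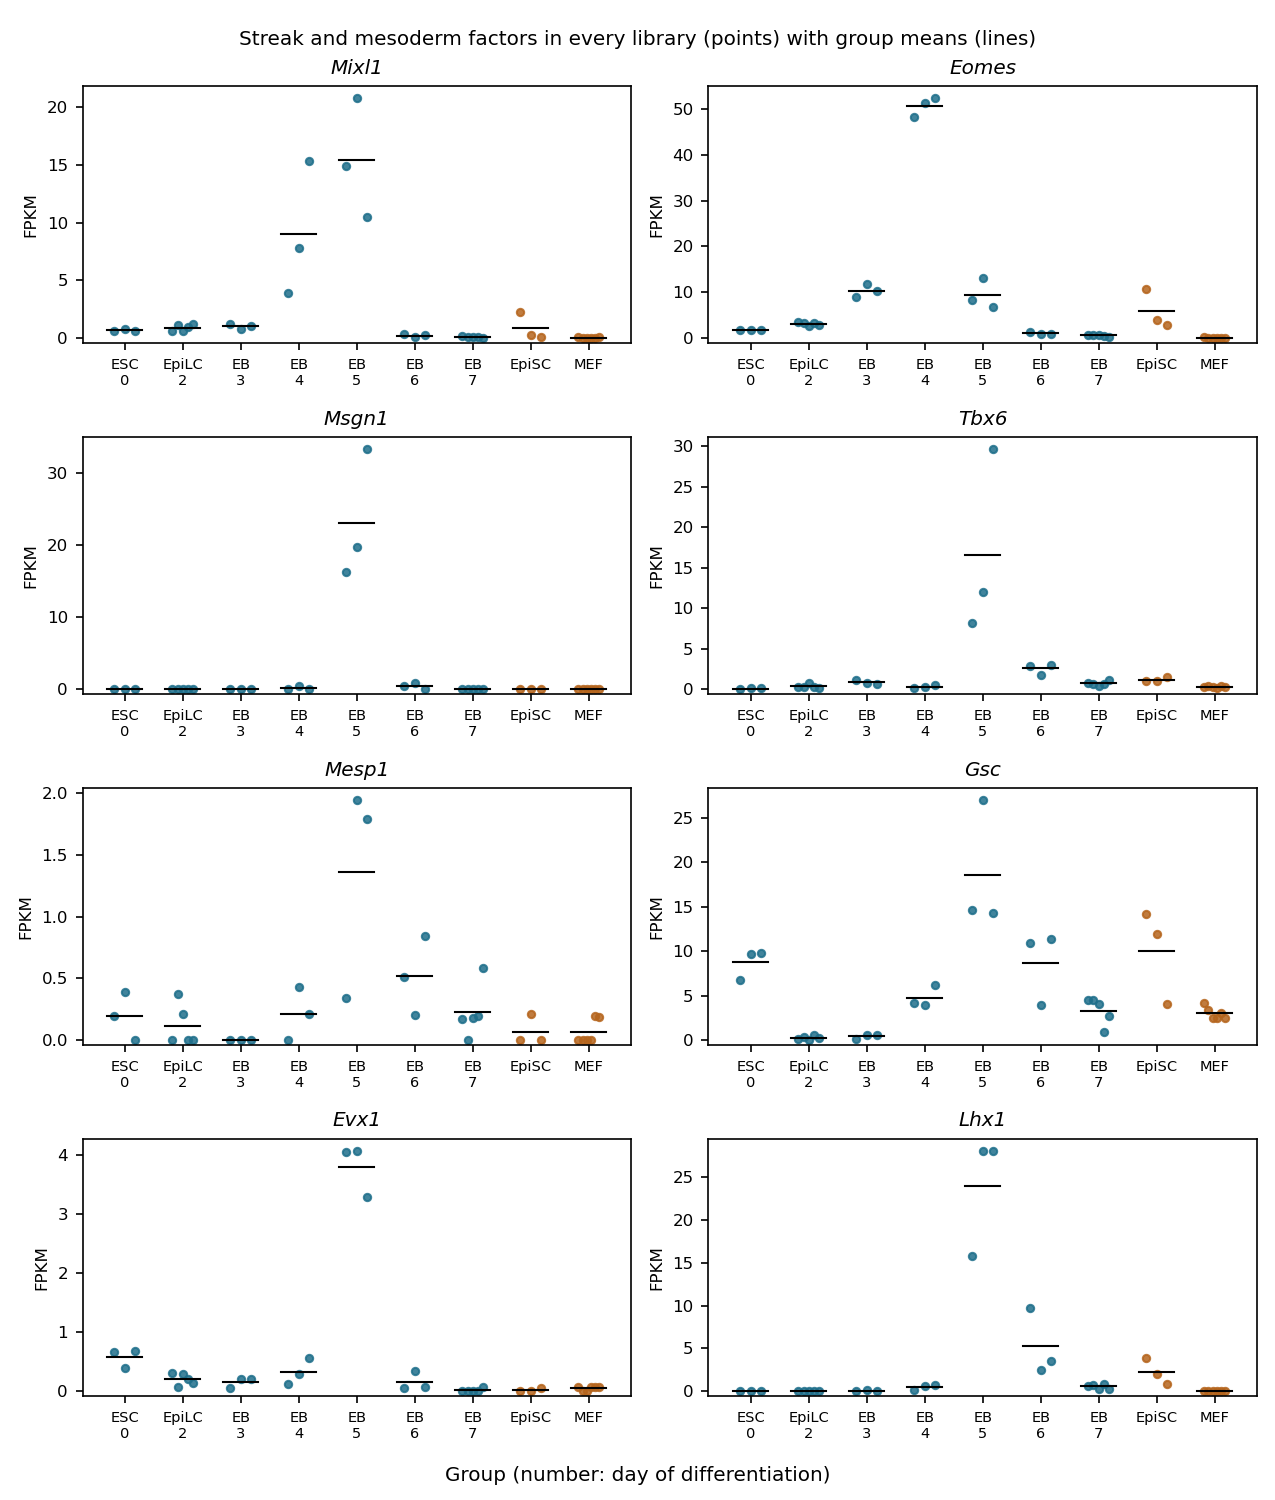
FPKM (vertical axis, linear, a separate scale per gene) of the 8 genes in every library (points) of the 9 groups (horizontal axis), with the group mean as a line; blue marks the differentiation course and brown EpiSC and MEF. The EB day 5 points stand above all others for Msgn1, Tbx6, Gsc, Evx1 and Lhx1, and the EB day 4 points for Eomes, at 48.1 to 52.3 FPKM.

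Eomes, a T-box factor that acts under Nodal signalling in streak, endoderm and cardiac mesoderm formation (mm9 chr9:118387307-118395250), came first. Its level was 1.71, 1.89 and 1.71 FPKM in ESC and 2.74 to 3.62 FPKM (median 3.30) in EpiLC. It was 9.07, 11.8 and 10.3 FPKM at EB day 3, 48.1, 51.3 and 52.3 FPKM at EB day 4, and 8.30, 13.1 and 6.76 FPKM at EB day 5. It was 1.36, 0.979 and 0.839 FPKM at EB day 6 and 0.345 to 0.779 FPKM at EB day 7. No EB day overlapped with the day before it, and the EB day 4 libraries differed little among themselves (50.6 ± 2.197 FPKM, SD, n = 3). Differences were tested with limma on log2(FPKM + 1), a scale that understates the change of low genes, with p-values adjusted over all 14595 genes. Calls needed an adjusted p below 0.05 together with a difference of 1 or more in size. Eomes rose by 1.44 ± 0.20 (SE) at EB day 3 against EpiLC (adjusted p = 9.69e-06) and by 2.19 ± 0.23 at EB day 4 against EB day 3 (adjusted p = 9.72e-08). It was then lower by the same measure at EB day 5 against EB day 4 (-2.36 ± 0.23, adjusted p = 1.67e-09) and at EB day 6 against EB day 5 (-2.30 ± 0.23, adjusted p = 8.84e-09).

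Tbx6, the T-box factor that commits cells to paraxial mesoderm (mm9 chr7:133924997-133929062), peaked a day after Eomes and was under 1 FPKM in every library of the day on which Eomes peaked. Its level was 1.12, 0.717 and 0.704 FPKM at EB day 3, and 0.0968, 0.316 and 0.517 FPKM at EB day 4. It was 8.23, 12 and 29.7 FPKM at EB day 5, 2.84, 1.81 and 3.03 FPKM at EB day 6, and 0.365 to 1.16 FPKM at EB day 7. The EB day 5 libraries did not overlap with any other group, but replicate 3 of EB day 5 was well above the others. Tbx6 rose at EB day 5 against EB day 4 by 3.57 ± 0.25 on the log2 scale (adjusted p = 1.24e-12) and fell at EB day 6 against EB day 5 (-2.13 ± 0.25, adjusted p = 1.35e-07; 0.0502 in a fit of these 2 groups alone). At EB day 7 against EB day 6 the difference was -1.04 ± 0.22 (adjusted p = 0.000681), close to the limit of 1. It was -0.98, -0.94 and -0.96 without EB day 6 replicate 1, EB day 6 replicate 3 or EB day 7 replicate 3, which ended the call, and -0.82 in the 1 sequencing project that holds 2 of the 3 EB day 6 libraries (adjusted p = 0.131).

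Mixl1, the paired-type homeobox factor of the early streak (mm9 chr1:182623179-182627165), was intermediate in time. Its level was 0.781 to 1.26 FPKM at EB day 3, then 3.93, 7.78 and 15.4 FPKM at EB day 4, and 14.9, 20.8 and 10.53 FPKM at EB day 5. At EB day 6 it was 0.322, 0.0828 and 0.260 FPKM, below the ESC level of 0.597 to 0.833 FPKM. The EB day 4 and EB day 5 libraries overlapped, and those of EB day 6 were apart from both. Mixl1 rose at EB day 4 against EB day 3 by 2.15 ± 0.30 (adjusted p = 6.70e-06; 0.0706 in a fit of these 2 groups alone, with the same difference). The difference at EB day 5 against EB day 4 was 0.83 ± 0.30 (adjusted p = 0.0339) and was not called, and the fall at EB day 6 against EB day 5 was -3.70 ± 0.30 (adjusted p = 1.11e-10). At EB day 6 the mean of Mixl1 was 1.44% and that of Eomes 2.09% of its highest mean.

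Gsc, or goosecoid, the homeobox factor of the organizer and anterior streak (mm9 chr12:105709419-105711446), was the member with a level at both ends of the course. In EpiLC it was 0 to 0.588 FPKM (median 0.198), against 6.74, 9.70 and 9.76 FPKM in ESC, a fall of 2.95 ± 0.33 on the log2 scale (adjusted p = 4.80e-09). It was 0.173, 0.573 and 0.564 FPKM at EB day 3, 4.16, 3.98 and 6.20 FPKM at EB day 4, and 14.6, 27.0 and 14.2 FPKM at EB day 5. At EB day 6 it was 10.96, 3.91 and 11.3 FPKM, and at EB day 7 it was 0.881 to 4.51 FPKM (median 4.08). The ESC libraries lay within the range of the EB day 6 libraries. Gsc rose at EB day 4 against EB day 3 by 2.00 ± 0.36 (adjusted p = 0.000295) and at EB day 5 against EB day 4 by 1.72 ± 0.36 (adjusted p = 0.000510). Within the sequencing project that holds 2 of 3 libraries at these days the same differences were 1.93 (adjusted p = 0.0787) and 1.79 (adjusted p = 0.0549).

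The later decline of Gsc was near the limits of the test. The difference at EB day 6 against EB day 5 was -1.07 ± 0.36 (adjusted p = 0.0462), and the call was lost when any of 16 libraries was left out (adjusted p = 0.0505 to 0.327). These were ESC replicates 2 and 3, EpiLC replicates 1, 2 and 5, EB day 3 replicate 2, EB day 4 replicates 1 and 2, EB day 5 replicates 1 and 2, EB day 6 replicate 2, EB day 7 replicate 5 and MEF replicates 2, 3, 5 and 6. The value was -0.63 without EB day 6 replicate 2 and -0.78 without EB day 5 replicate 2. It was -0.38 and -1.41 within the 2 projects (adjusted p = 0.436 and 0.178). At EB day 7 against EB day 6 the difference was -1.15 ± 0.33 (adjusted p = 0.00894), and it was -0.95, -0.93 and -0.88 without EB day 6 replicate 1, EB day 6 replicate 3 or EB day 7 replicate 4, none of which was called. In a fit of the 2 groups alone its adjusted p was 0.0832.

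Lhx1, a LIM homeobox factor of the organizer that is needed for the head (mm9 chr11:84332881-84339036), appeared abruptly. It was listed at 0 in all 3 ESC libraries and was at most 0.134 FPKM in any EpiLC or EB day 3 library. It was 0.193, 0.553 and 0.670 FPKM at EB day 4 and 15.8, 28.1 and 28.1 FPKM at EB day 5. At EB day 6 it was 9.72, 2.53 and 3.51 FPKM, and at EB day 7 0.252 to 0.863 FPKM. Neighbouring days did not overlap from EB day 4 on. Lhx1 rose at EB day 5 against EB day 4 by 4.06 ± 0.28 (adjusted p = 8.69e-13), fell at EB day 6 against EB day 5 (-2.13 ± 0.28, adjusted p = 8.98e-07) and fell again at EB day 7 against EB day 6 (-1.85 ± 0.25, adjusted p = 1.00e-06). In the project that holds only replicate 1 of EB day 5 and of EB day 6, the first of these falls was -0.65, and in a fit of the 2 groups alone it was -2.13 with an adjusted p of 0.0524. The neighbouring antisense entry Lhx1os was at 6.13, 9.77 and 8.63 FPKM at EB day 5 and at 0, 0 and 0.355 FPKM at EB day 4. Whether the counting used strand is not given in the sources used here.

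Evx1, an even-skipped type homeobox factor of the posterior streak (mm9 chr6:52263492-52268372), was the weakest of the called members. It was 0.396 to 0.675 FPKM in ESC, 0.129, 0.287 and 0.561 FPKM at EB day 4, and 4.05, 4.06 and 3.28 FPKM at EB day 5. It was 0.0592 to 0.337 FPKM at EB day 6, and listed at 0 in 4 of 5 libraries of EB day 7. Only EB day 5 libraries reached 1 FPKM, so Evx1 passed the filter through them alone. Its calls against that day follow in part from the filter and are given as a description. Evx1 rose at EB day 5 against EB day 4 by 1.86 ± 0.11 (adjusted p = 7.67e-14) and fell at EB day 6 against EB day 5 (-2.06 ± 0.11, adjusted p = 1.58e-14). Its entry overlaps that of 5730457N03Rik, which was at 0.877, 1.14 and 1.76 FPKM at EB day 5, and reads of the overlap cannot be told apart if strand was not used. Evx1 and Lhx1 also mark spinal interneurons. The 10 interneuron markers (which leave both genes out) summed to 21.5 to 29.9 FPKM in ESC, 4.84 to 7.35 FPKM at EB day 5 and 25.1 to 39.9 FPKM at EB day 7, but 9 of the 10 in ESC and 8 of the 10 at EB day 5 and at EB day 7 had a mean under 1 FPKM, so that 1 or 2 genes carry each sum. Evx2 was listed at 0 in every library outside MEF.

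Msgn1, mesogenin, the bHLH master regulator of presomitic mesoderm (mm9 chr12:11215188-11215754), was above 1 FPKM at EB day 5 alone. It was 16.2, 19.7 and 33.4 FPKM at EB day 5. It was listed at 0 in 28 libraries, among them every library of ESC, EpiLC, EB day 3, EB day 7, EpiSC and MEF, and its other values were 0.448 FPKM in 1 library of EB day 4 and 0.394 and 0.831 FPKM in 2 libraries of EB day 6. Its smallest value above 0 was 0.394 FPKM, so lower levels of this short transcript were not detectable at this depth. On the log2(FPKM + 1) scale the difference was 4.35 ± 0.17 at EB day 5 against EB day 4 (adjusted p = 1.85e-18) and -4.08 ± 0.17 at EB day 6 against EB day 5 (adjusted p = 2.97e-17). These sizes depend on the pseudocount, being 6.97 and -5.95 with a pseudocount of 0.1 FPKM, and no fold is given. Msgn1 passed the filter through its EB day 5 libraries alone, so both calls follow in part from the filter and are a description.

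Mesp1, the bHLH factor of nascent and cardiac mesoderm (mm9 chr7:86937127-86938476), stayed low. It was listed at 0 in all EB day 3 libraries, at 0.339, 1.94 and 1.79 FPKM at EB day 5, at 0.512, 0.202 and 0.842 FPKM at EB day 6, and at most at 0.585 FPKM elsewhere. Only 2 libraries reached 1 FPKM, so Mesp1 did not pass the filter. In the fit without the filter its difference was 0.89 ± 0.22 at EB day 5 against EB day 4 (adjusted p = 0.00384), under the minimum size, and 1.00 ± 0.19 at EB day 5 against EpiLC (adjusted p = 0.000117). Its paralogue Mesp2, which acts in somite segmentation, was at 0.362, 0.265 and 0 FPKM at EB day 5 and at 1.33, 0.522 and 1.32 FPKM at EB day 3. Msgn1 and Mesp1 are of the same factor class, but in the EB day 5 libraries Msgn1 was at 16.2 FPKM or more and Mesp1 at 1.94 FPKM or less, on a scale set per transcript length.

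The stretches before the gene starts were read for every member with an entry, from RefSeq on GRCm38.p6 (7 of the 8 genes matched; Mixl1 did not). Letters were searched on both strands in the 250 bases before the start, where -1 is the last base before it. The TCF/LEF letters, through which Wnt signals act, were searched first as CTTTGAT (in 3.23% of 27025 promoters) or CTTTGTT (4.99%). Msgn1 and Mesp1 each held 1 match to these, the other 5 matched genes 0, and 8.04% of promoters held either. The forms CTTTGAA (4.64%) or CTTTGTA (3.12%) were added after the sequences had been seen. They gave 1 further match in each of Msgn1 and Mesp1 and 0 in the other 5, which is a description only, since the forms were chosen with these sequences in view. The stretch of Msgn1 is shown for its pair of matches, in capitals at bases -203 to -197 (on the other strand) and -143 to -137 (chr12:11208973-11209198, minus strand, bases -250 to -25):
Msgn1: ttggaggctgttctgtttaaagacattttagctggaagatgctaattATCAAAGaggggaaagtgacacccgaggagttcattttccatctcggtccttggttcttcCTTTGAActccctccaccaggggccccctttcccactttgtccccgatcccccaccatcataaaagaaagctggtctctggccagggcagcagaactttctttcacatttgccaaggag
For Mesp1 only the matched sites are shown, in capitals, at bases -73 to -67 (on the other strand, within chr7:79793651-79793669) and -31 to -25 (within chr7:79793609-79793627), both on the minus strand and both inside the gene as GENCODE draws it:
Mesp1 site 1: ctatggTTCAAAGggttca
Mesp1 site 2: agccggCTTTGATatgctg

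The stretch of Tbx6, which peaked with Msgn1, is shown beside them for contrast, since it held none of these forms (chr7:126781233-126781482, plus strand, bases -250 to -1). Its capitals mark the homeodomain letters TAATTA at bases -231 to -226, found in 4.9% of promoters, and the TATA box letters TATAAA at bases -43 to -38, found in 13.0%:
Tbx6: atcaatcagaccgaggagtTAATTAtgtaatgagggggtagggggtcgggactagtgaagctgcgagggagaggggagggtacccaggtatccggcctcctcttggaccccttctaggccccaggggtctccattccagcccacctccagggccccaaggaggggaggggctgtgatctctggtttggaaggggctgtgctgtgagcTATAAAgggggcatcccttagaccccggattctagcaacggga
Msgn1 also held TAATTA, at bases -208 to -203, which shares its last base with the first TCF/LEF match. Gsc held TATAAA at bases -164 to -159. E-box letters (CAGNTG, in 44.5% of promoters) stood in Mesp1, Gsc and Evx1. The T-box letters AGGTGTGA (1.14% of promoters), the FOXH1 letters TGTNNATT (11.1%) and the homeodomain letters TAATCC (6.38%) were in none of the 7 stretches, and Eomes and Lhx1 held none of the letters searched. A match is a description of letters and was not tied to binding, and no match says only that the letters are not in this window.

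**Figure D2:**
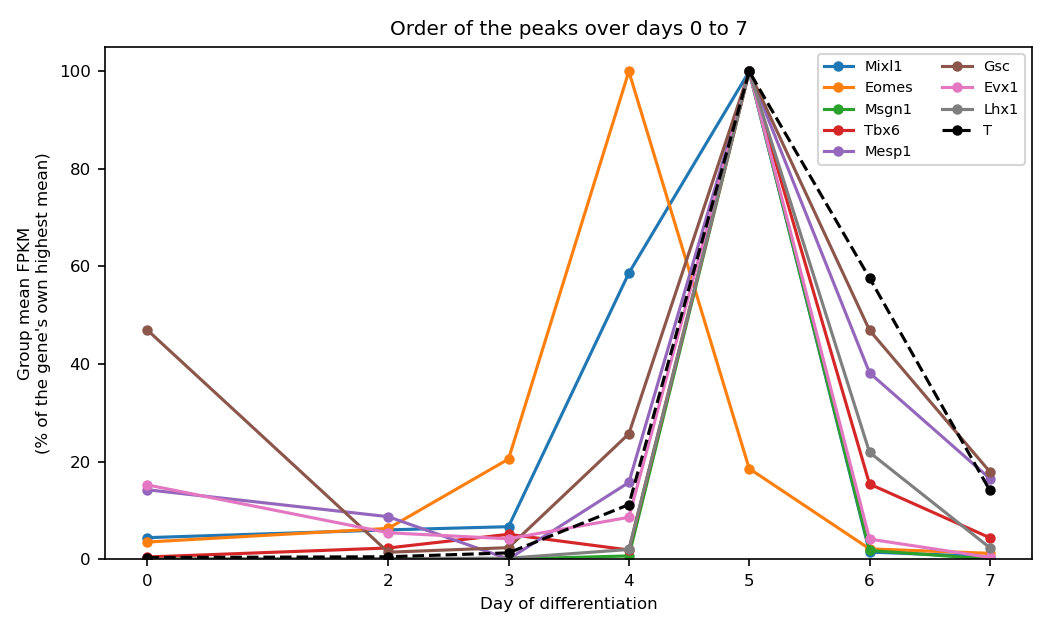
Mean FPKM of each gene as a percentage of its own highest mean (vertical axis) over days 0 to 7 (horizontal axis), with T as a dashed line. Eomes peaks at day 4, when Mixl1 is at 58.6% and Tbx6 at 1.86% of their peaks, and Gsc alone starts high, falls and returns.

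T (Brachyury), the T-box factor of streak and notochord, had its highest group mean on the same day as the later members. In the culture course of replicate 1, though, it was highest at EB day 6. It was 388, 621 and 575 FPKM at EB day 5 and 401, 198 and 314 FPKM at EB day 6, a difference of -0.82 ± 0.41 that was not called (adjusted p = 0.210), and its EB day 6 mean was 57.6% of its highest mean.

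The calls of each step can be counted against all genes. At EpiLC day 2 against ESC day 0, 0 members were higher and 1 (Gsc) lower, against 7.69% and 9.09% of all tested genes. At EB day 3 against EpiLC day 2, 1 (Eomes) was higher and 0 lower, against 0.911% and 0.959% of genes. At EB day 4 against EB day 3, 3 (Mixl1, Eomes and Gsc) were higher and 0 lower, against 0.911% and 1.38% of genes. At EB day 5 against EB day 4, 5 (Msgn1, Tbx6, Gsc, Evx1 and Lhx1) were higher, against 6.22% of genes, and Eomes was lower, against 1.55%. All 7 tested members were lower and 0 higher at EB day 6 against EB day 5, where 2.77% and 2.19% of genes were. Then 3 (Tbx6, Gsc and Lhx1) were lower and 0 higher at EB day 7 against EB day 6, where 2.0% and 2.8% of genes were. Over the longer intervals, all 7 tested members were higher at EB day 5 against EpiLC (10.6% of genes were higher and 7.76% lower) and lower at EB day 7 against EB day 5 (5.31% of genes were lower and 6.6% higher). Msgn1 and Evx1 entered the test only because of their EB day 5 libraries, so their calls against that day follow in part from the filter. The day-to-day comparisons share groups and are not independent of each other.

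**Figure D3:**
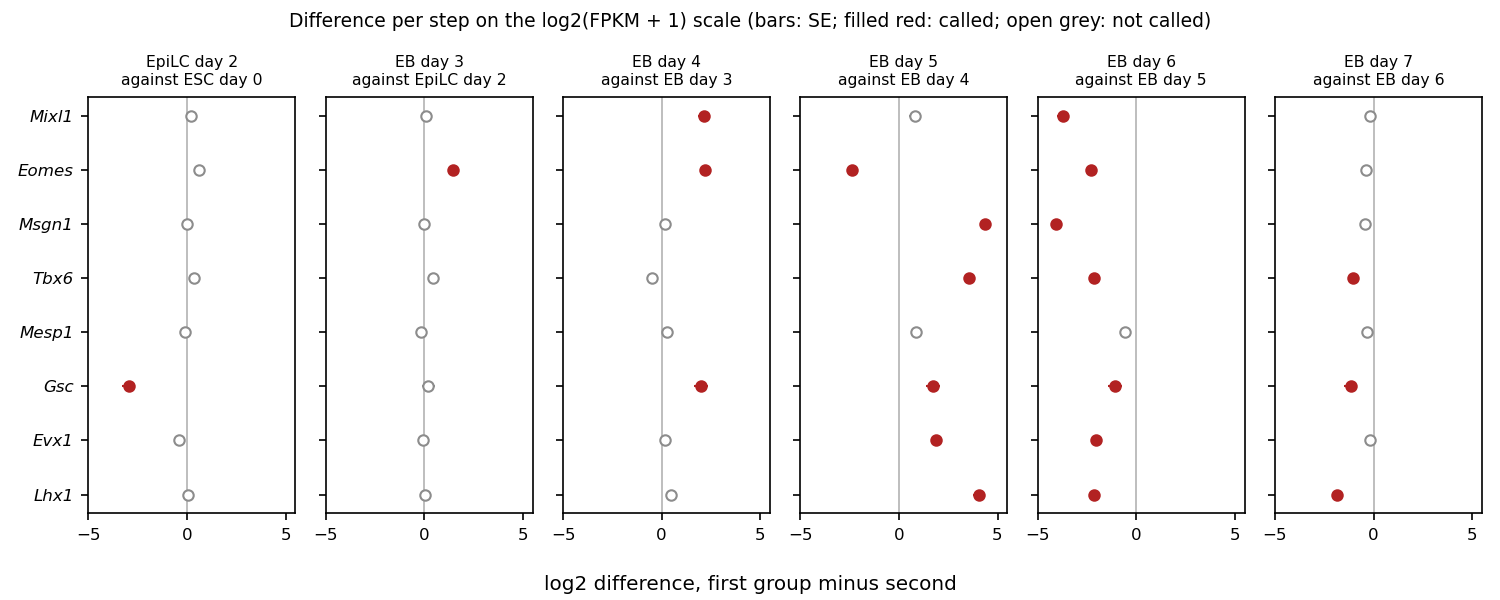
Difference on the log2(FPKM + 1) scale (horizontal axis, first group minus second, bars for the SE) of each gene (rows) in the 6 steps of the course (panels); filled points were called, and Mesp1 is from the fit without the filter. Calls to the right appear at EB day 3, 4 and 5, and at EB day 6 against EB day 5 the 7 tested members lie to the left, from -1.07 for Gsc to -4.08 for Msgn1.

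Single culture courses, identified by the dates in the titles, could be followed in 3 cases from day 2 to day 7 with 1 library per day. In all 3 courses 6 of the 8 genes peaked on the same day. The exceptions were Mixl1, which in course 3 was higher at EB day 4 (15.4 FPKM) than at EB day 5 (10.53 FPKM), and Mesp1, which in course 1 was highest at EB day 6 (0.512 FPKM). Course 3 had the highest Msgn1 and Tbx6 of EB day 5 (33.4 and 29.7 FPKM) and the lowest Mixl1, Eomes and Evx1 of that day (10.53, 6.76 and 3.28 FPKM). Course 1 kept the most Lhx1 at EB day 6 (9.72 FPKM), and course 2 kept the least Gsc (3.91 FPKM).

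**Figure D4:**
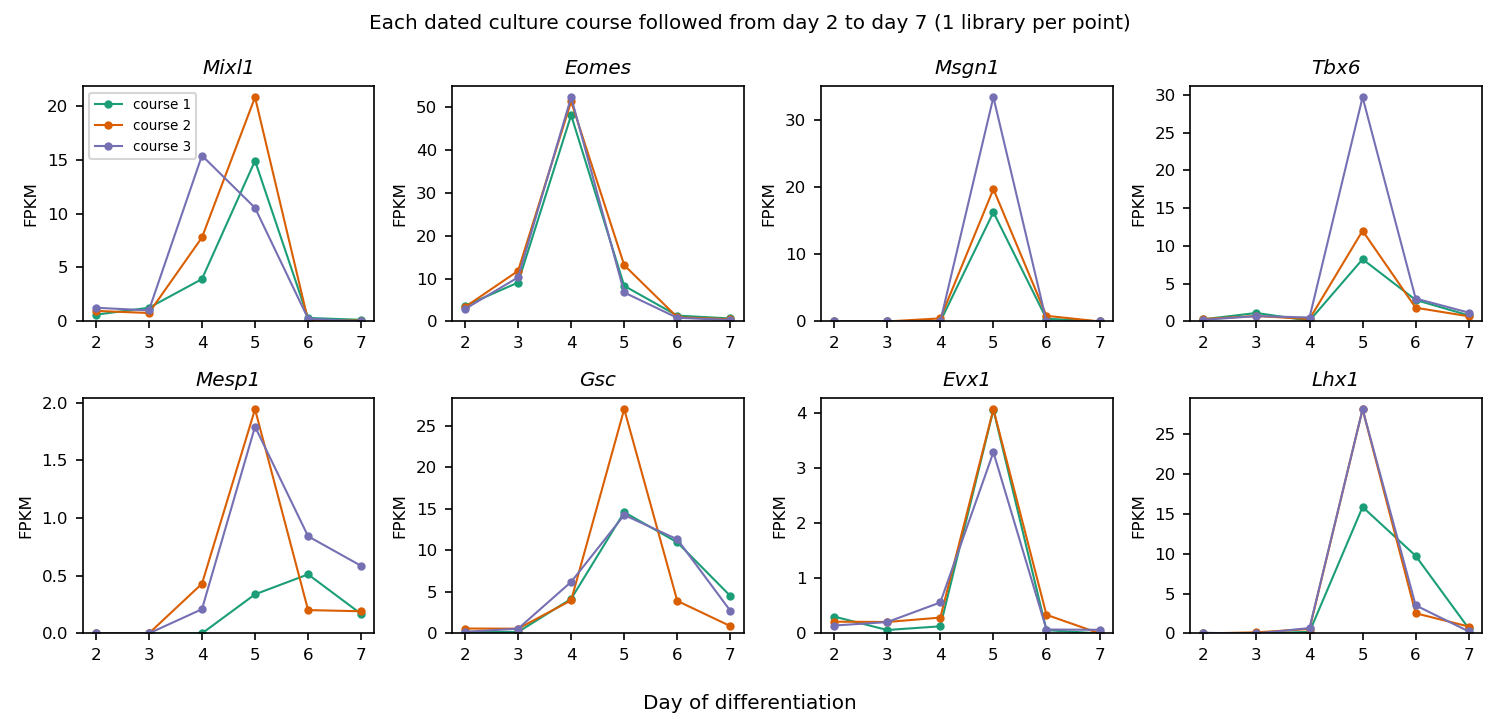
FPKM (vertical axis, linear) of each gene from day 2 to day 7 (horizontal axis) in each of 3 dated culture courses (colours), with 1 library per point. Mixl1 of course 3 peaks at day 4 and Mesp1 of course 1 at day 6, while the other 6 genes share a peak day in all courses.

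The signals that induce the streak were a list of 18 ligands, coreceptors, inhibitors and direct targets, all tested. At EB day 4 against EB day 3, 4 were higher and 2 lower (0.911% and 1.38% of all genes), with a median difference of 0.20 against -0.02 over all genes. Id3, a BMP target, was at 66.0 ± 15.3 FPKM at EB day 4 and 24.9 ± 1.86 FPKM at EB day 3 (log2 1.35), and Sp5, a Wnt target, at 6.67 ± 2.81 and 0.308 ± 0.173 FPKM (log2 2.48). Fgf4, a pluripotency-linked ligand, fell (10.1 ± 3.17 FPKM at EB day 4 and 45.3 ± 4.59 FPKM at EB day 3, log2 -2.09). At EB day 5 against EB day 4, 5 were higher and 5 lower (median -0.12 against 0.00), where 6.22% and 1.55% of all genes were. Wnt3a, the Wnt ligand of the late streak, was at 6.90 ± 2.34 FPKM at EB day 5 and 0.225 ± 0.246 FPKM at EB day 4 (log2 2.67), and the secreted inhibitors Dkk1 (log2 4.55) and Cer1 (log2 5.43) rose with it.

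Nodal itself, the ligand upstream of Eomes, named for its role and not by the rule for list genes, was at 76.5 to 83.4 FPKM at EB day 3, 53.2 to 53.8 FPKM at EB day 4 and 14.6 to 18.1 FPKM at EB day 5, and was lower at EB day 5 against EB day 4 (-1.69 ± 0.32, adjusted p = 0.000156). Of the 18 signals, 14 were lower and 0 higher at EB day 6 against EB day 5 (2.77% and 2.19% of all genes), with a median of -1.72 against -0.01 over all genes. Among them were Wnt3a (log2 -2.61), the Nodal coreceptor gene Tdgf1 (9.19 ± 2.05 FPKM at EB day 6 and 99.5 ± 38.6 FPKM at EB day 5, log2 -3.24) and the early streak ligand Wnt3 (1.03 ± 0.0217 FPKM at EB day 6 and 5.24 ± 1.01 FPKM at EB day 5, log2 -1.61).

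Other streak genes, 12 of 13 listed being tested, gave 5 higher at EB day 4 against EB day 3 (median 0.73, beside 0.911% of all genes). They gave 7 higher at EB day 5 against EB day 4 (median 1.03, beside 6.22% of all genes) and 0 lower in either step. Cdx2, a posterior homeobox factor, was at 48.9 ± 18.01 FPKM at EB day 5 and 0.845 ± 0.635 FPKM at EB day 4 (log2 4.76). Cdh2, N-cadherin, was at 46.8 ± 6.52 and 4.44 ± 1.19 FPKM (log2 3.15). Then 6 of the 12 were lower at EB day 6 against EB day 5 and 0 higher (median -1.05), where 2.77% and 2.19% of all genes were. Those that fell included Nkx1-2 (log2 -3.44), Fgf17 (log2 -1.84) and Wnt8a (log2 -2.63).

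Of 14 tested presomitic and paraxial genes, 9 were higher and 0 lower at EB day 5 against EB day 4 (median 1.83), the step at which Msgn1 and Tbx6 rose. Of all genes, 6.22% were higher and 1.55% lower at that step. The segmentation clock gene Hes7 was at 20.7 ± 11.2 FPKM at EB day 5 and 0.0984 ± 0.170 FPKM at EB day 4 (log2 4.19), and the Wnt enhancer gene Rspo3 at 40.4 ± 8.40 and 2.29 ± 0.424 FPKM (log2 3.64). Of the same 14 genes, 7 were higher and 3 lower at EB day 6 against EB day 5 (median 1.01, beside 2.19% and 2.77% of all genes). Those that rose included Foxc2 (17.2 ± 4.18 FPKM at EB day 6 and 0.685 ± 0.709 FPKM at EB day 5, log2 3.49), the retinoic acid synthesis gene Aldh1a2 (log2 3.14) and the somite gene Uncx (log2 2.29), all of later paraxial mesoderm or somites. At EB day 7 against EB day 6, 5 were lower (2.0% of all genes), with Hes7 (log2 -2.47), Rspo3 (log2 -2.15) and Ripply2 (log2 -1.58) among them.

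Node and organizer genes (11 tested) were higher in 9 cases at EB day 5 against EB day 4 (median 2.83, where 6.22% of all genes were higher), beside Gsc and Lhx1, which the list leaves out. Noto, a notochord factor, was at 81.1 ± 39.9 FPKM at EB day 5 and 0.645 ± 0.371 FPKM at EB day 4 (log2 5.53), the BMP inhibitor gene Nog at 15.7 ± 6.34 and 0.238 ± 0.113 FPKM (log2 3.68), and Foxa1 rose by 2.65. A day later 3 rose, among them Shh (log2 2.19), and 2 fell, among them Foxj1 (log2 -3.70), where 2.19% and 2.77% of all genes did. Lateral plate, cardiac and haemangioblast genes, the derivatives that Mesp1 is known for, were higher in 2 of 11 tested cases at EB day 5 against EB day 4 (Gata4, log2 2.25, and Smarcd3, log2 1.06), where 6.22% of all genes were, with a median of 0.21. Later, 4 were higher and 1 lower at EB day 6 against EB day 5 (2.19% and 2.77% of all genes). Tbx20, Foxf1 and Isl1 were higher at EB day 7 against EB day 6, where 2.8% of all genes were. Of 5 tested intermediate mesoderm and nephric duct genes, 0 were higher and 1 (Wt1, log2 -1.43) lower at EB day 5 against EB day 4, where 6.22% and 1.55% of all genes were.

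Markers of other tissues moved beside these genes. The 7 definitive endoderm markers, of which Foxa1, Foxa2 and Cer1 are also in the lists above, summed to 29.4 to 65.2 FPKM at EB day 4, 197 to 373 FPKM at EB day 5 and 100 to 177 FPKM at EB day 6. Of the 7, 6 were higher at EB day 5 against EB day 4, where 6.22% of all genes were. At EB day 4, 5 of the 7 had a mean under 1 FPKM and Foxa2 a mean of 41.0 FPKM. At EB day 5 the mean of Cer1 was 154.8 FPKM and that of Foxa2 81.6 FPKM, so genes shared with the lists above carry much of these sums. The 7 neural progenitor markers, 4 of them higher at EB day 5 against EB day 4, summed to 25.7 to 29.7 FPKM at EB day 4, 77.6 to 80.8 FPKM at EB day 5 and 135 to 229 FPKM at EB day 7. The 6 formative epiblast markers summed to 497 to 545 FPKM at EB day 4 and 170 to 233 FPKM at EB day 5, with 1 of the 6 lower at EB day 5 against EB day 4. Their part in the members' changes was not tested. Of the 7 extraembryonic endoderm markers, Afp and Ttr were listed at 0 in every library of EB day 4 and EB day 5, and the list summed to 6.56 to 7.93 FPKM at EB day 5. The trophoblast markers summed to 9.03 to 12.2 FPKM and those of blood and endothelium to 3.38 to 4.43 FPKM at EB day 5.

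EpiSC held part of the set and lacked the rest. Gsc was 14.2, 11.9 and 4.10 FPKM, Eomes 10.8, 4.06 and 2.94 FPKM, Lhx1 3.83, 1.98 and 0.882 FPKM and Mixl1 2.30, 0.271 and 0.148 FPKM in EpiSC replicates 1, 2 and 3. Tbx6 was 0.994, 1.07 and 1.47 FPKM, Msgn1 was listed at 0 in all 3, and Evx1 and Mesp1 were each listed at 0 in 2 of 3. For Gsc, Eomes, Lhx1 and Mixl1 replicate 1 was the highest and replicate 3 the lowest, and the same held for T (6.65, 1.57 and 0.401 FPKM), Foxa2 (23.1, 5.93 and 2.04 FPKM) and Nodal (54.6, 44.7 and 10.4 FPKM), while Tbx6 had the reverse order.

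EpiSC differ from EpiLC and the EB groups in cell line, strain label and culture conditions at once, and these cannot be told apart here. Against EpiLC, the other epiblast-type cells, Gsc was higher in EpiSC by 3.00 ± 0.33 (adjusted p = 3.54e-09) and Lhx1 by 1.55 ± 0.25 (adjusted p = 3.06e-06). Thus 2 of 7 tested members were higher in EpiSC, against 10.8% of genes, and 0 lower, against 8.22%. The Lhx1 difference was 1.21 to 1.89 when 1 of the EpiSC libraries was left out. Eomes (0.57 ± 0.20, adjusted p = 0.0179) and Mixl1 (-0.17 ± 0.26, adjusted p = 0.599) were not called, and for both the EpiSC libraries overlapped with those of EpiLC. Among the inducing signals, 4 were higher and 4 lower in EpiSC than in EpiLC. Cer1 was at 44.2 ± 20.3 FPKM in EpiSC and 0.178 ± 0.0844 FPKM in EpiLC (log2 5.14). Of the other streak genes, 2 were higher and 2 lower, and Wnt8a fell (2.16 ± 3.28 FPKM in EpiSC and 17.4 ± 6.19 FPKM in EpiLC, log2 -2.96).

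Against EB day 5, 5 of 7 tested members were lower in EpiSC, against 7.02% of genes, and 0 higher, against 6.34%. The differences were -3.23 ± 0.30 for Mixl1, -4.53 ± 0.17 for Msgn1, -2.83 ± 0.25 for Tbx6, -2.23 ± 0.11 for Evx1 and -3.01 ± 0.28 for Lhx1, with adjusted p-values of at most 2.35e-10. Msgn1 and Evx1 passed the filter only through their EB day 5 libraries, so their place in this count follows in part from the filter. Gsc (-0.91 ± 0.36, adjusted p = 0.0420) and Eomes (-0.70 ± 0.23, adjusted p = 0.0130) stayed under the minimum size. Against EB day 7, 2 of 7 were higher and 0 lower in EpiSC, against 7.3% and 9.59% of genes. These were Eomes, higher by 1.96 ± 0.20 (adjusted p = 1.73e-09) and Gsc by 1.31 ± 0.33 (adjusted p = 0.00115). Lhx1 was 0.97 ± 0.25 higher (adjusted p = 0.00146), under the minimum size.

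EpiSC were grown on fibroblasts, so the levels in MEF matter. The 12 fibroblast markers summed in EpiSC replicates 1, 2 and 3 to 4.52%, 2.84% and 3.38% of their MEF mean, and Col1a1 was at 67.9 to 123.4 FPKM in EpiSC and 3499 to 4882 FPKM in MEF. Gsc was the 1 member with a clear level in MEF, at 2.45 to 4.13 FPKM (median 2.79), and its EpiSC mean was 334% of its MEF mean. The part of feeder RNA in the EpiSC values was not tested. Against MEF, 3 of 7 tested members were higher and 0 lower in EpiSC, against 16.0% and 20.2% of genes. These were Eomes, higher by 2.45 ± 0.20 (adjusted p = 1.85e-12), Gsc by 1.33 ± 0.32 (adjusted p = 0.000380) and Lhx1, listed at 0 in every MEF library, by 1.59 ± 0.24 (adjusted p = 5.98e-07). The Gsc ranges overlapped by 1 EpiSC and 1 MEF library. The p-values against MEF take passages of 2 cultures as independent libraries. With the mean per MEF culture in place of single libraries, all 3 differences kept their call. MEF held at most 0.239 FPKM of Eomes, 0.421 FPKM of Tbx6 and 0.0894 FPKM of Mixl1.

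**Figure D5:**
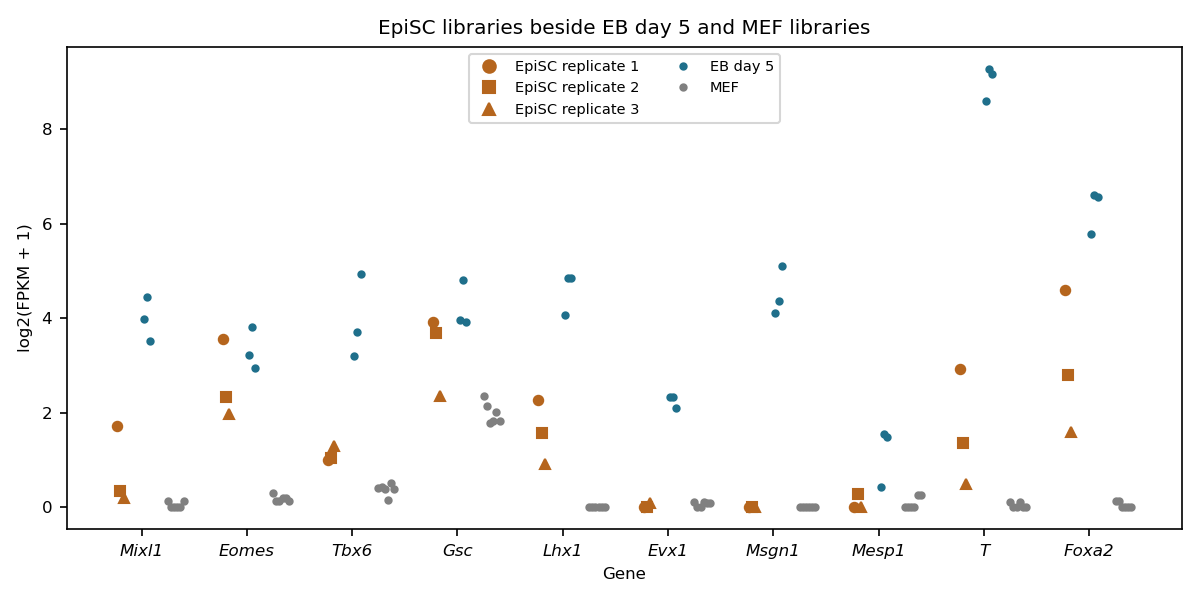
log2(FPKM + 1) (vertical axis) of the 8 genes, T and Foxa2 (horizontal axis) in the 3 EpiSC libraries (brown, 1 symbol per replicate), the EB day 5 libraries (blue) and the MEF libraries (grey). EpiSC points reach the EB day 5 points for Eomes and come close to them for Gsc, and lie far below them for Msgn1, Evx1, Tbx6 and T.

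Among themselves the members fell into neighbouring patterns over the 34 libraries, given as Pearson r of log2(FPKM + 1). Msgn1 went with Evx1 (r = 0.93) and Tbx6 (0.90), and Tbx6 with Lhx1 (0.93). Mixl1 went with Eomes (0.80) and Evx1 (0.78), while Eomes and Gsc shared little (0.09). Of all genes tested, the most like Msgn1 were Wnt3a (0.985), Pla2g2a (0.979) and S1pr5 (0.971), and Pla2g2a (0.936), Msgn1 and Wnt3a (0.93 each) were also the most like Evx1. Msgn1, Evx1, Wnt3a, Pla2g2a and S1pr5 all passed the filter through their EB day 5 libraries alone. Genes kept in that way share the pattern in advance, so the r values of Msgn1 and Evx1 follow in part from the filter and are a description. For Lhx1 these were Enkur, Armc3 and Daw1 (0.97 to 0.971), for Tbx6 Efcab6 (0.947), Ect2l (0.942) and Fgg (0.936), and for Mixl1 Tgm3 (0.917), Chrna9 (0.907) and Gm11549 (0.894). For Eomes they were Zfp36l3 (0.908), Shc4 (0.899) and Polr2h (0.885), for Gsc Pla2g7 (0.854), Aph1c (0.828) and Cep112 (0.821), and for Mesp1 Zbbx (0.874), Ddo (0.857) and Ccdc146 (0.853). The libraries share groups and are not independent points. Over the 9 group means the 3 most like genes differed wholly for Tbx6, Mesp1 and Lhx1.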

How the data were processed

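The authors deposited 1 table of FPKM values per gene entry and library; per the submitters' processing notes the build was mm9 and the tools were Cufflinks 2.2.1 with Cuffdiff, HISAT2 2.0.4 and cutadapt 1.4.1, whose order and settings are not given in the sources used here. Per the labels' protocols, total RNA went into TruSeq Stranded mRNA libraries. The file holds no counts, so read depth is unknown. The low values, up to 0.15 FPKM, lie on steps for 59.9 to 91.1% of gene ratios per library (within 0.04 on the log2 scale). ESC day 0 replicate 1 is left out of that range, being listed at 100% with a relative depth of 1. The steps gave relative depths of 0.847 to 1.18. Constitutive genes (9 checked) were at 0 in no library, and no 2 libraries were identical.

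Entries that reached 1 FPKM in 3 or more libraries (14595 of 24103) were fitted with limma 3.58.1 in R 4.3.3 on log2(FPKM + 1), all 34 libraries in 1 fit without covariates, with trended variance and Benjamini-Hochberg adjustment over all genes kept. Calls needed an adjusted p below 0.05 together with a difference of 1 or more. The p-values measure the spread between libraries that the labels name biological replicates, of 1 line each for the differentiation course and EpiSC. The MEF libraries come from 2 cultures, each sampled at successive passages, and were fitted as if independent. Their spread enters every test of the fit, and p-values against MEF do not allow for the shared culture. On simulated data with the real genes' means, 95 to 100 of 100 genes changed by 1.5 and 98 to 100 of 100 changed by 2 on the log2 scale were recovered, depending on the comparison, with 0 to 3 false calls among 14595 genes. The changed genes were drawn from those with a mean above 1 on the log2(FPKM + 1) scale, with normal noise and no floor at 0. Recovery for genes near 0 in most groups, such as Msgn1 and Evx1, was not simulated.

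Named are the 8 members, up to 3 called genes per list and comparison with the smallest adjusted p, and the 3 genes most like each member. Members, lists and tests were chosen with earlier results of these data known. Of the list genes, 2 have no entry under their own symbol. Alternatives were other pseudocounts, filters, scalings and fits, each sequencing project, blocks, and leaving out each library.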

Additional observations from a re-analysis of the deposited data

Results flagged for a closer look

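Of 20 sets of a member's values in groups of 4 to 10 libraries, 4 held 1 library far from the others by Dixon's criterion. For normal values chance alone gives this for about 1 set in 20. Many of these sets hold low values or zeros, for which that rate need not hold. Tbx6 was at 0.795 FPKM in EpiLC day 2 replicate 3, and the nearest of the other 4 EpiLC libraries was at 0.313 FPKM. Tbx6 was at 0.110 FPKM in MEF replicate 4, against 0.309 FPKM in the nearest MEF library. Eomes was at 0.239 FPKM in MEF replicate 1, against 0.145 FPKM in the nearest MEF library. Evx1 was at 0.0655 FPKM in EB day 7 replicate 5 and listed at 0 in the other 4 libraries of that day, a set in which any value above 0 is flagged. All 4 values are under 1 FPKM, and the differences called for these genes kept their call when each of these libraries was left out.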

How the results depend on the processing

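Of the 47 differences called for members, 0 changed direction under any alternative. All 47 stayed called with quantile normalization and with project as a covariate, as did the 42 that could be tested with a filter of 5 FPKM. Rescaling by median ratios, no filter and a pseudocount of 0.1 FPKM each ended 1 call, always Gsc at EB day 6 against EB day 5 (adjusted p = 0.0501, 0.0934 and 0.199), as did the fit without MEF (0.0777). A fit of the 2 groups alone, with fewer libraries to estimate the spread, ended 5 with unchanged differences: Mixl1 at EB day 4 against EB day 3 (adjusted p = 0.0706), Tbx6, Lhx1 and Gsc at EB day 6 against EB day 5 (0.0502, 0.0524 and 0.221) and Gsc at EB day 7 against EB day 6 (0.0832). Project A alone ended 2 of 35, Gsc (-0.38) and Lhx1 (-0.65) at EB day 6 against EB day 5. Project B alone ended 5 of 43: Gsc at each step from EB day 4 to EB day 7 (1.93, 1.79, -1.41 and -1.56) and Tbx6 at EB day 7 against EB day 6 (-0.82). Leaving out 1 library ended 22 of 1598, all for Gsc or Tbx6.

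Within EB days 3 to 6 the replicate numbers follow the dated courses, so that same-numbered libraries come from 1 course. Of 18 such pairs, r ran from -0.319 to 0.3 and 3 exceeded 0.1, as did 13 of 36 pairs of unlike numbers. Little shared deviation was seen by this measure, which does not undo the pairing by date. With the replicate block the Gsc difference at EB day 6 against EB day 5 was -1.07 (adjusted p = 0.0639) and the other 46 calls were kept; with the culture course as block its adjusted p was 0.108 and 33 of 34 calls were kept.

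Counts moved most with the pseudocount and the minimum difference. With a pseudocount of 0.1 FPKM the genes called were 3926 at EpiLC against ESC (2449 in the main analysis), 796 at EB day 3 against EpiLC (273), 731 at EB day 4 against EB day 3 (335), 2035 at EB day 5 against EB day 4 (1134), 1232 at EB day 6 against EB day 5 (724), 1341 at EB day 7 against EB day 6 (700), 4261 at EB day 5 against EpiLC (2678), 2856 at EB day 7 against EB day 5 (1738), and for EpiSC 4449 against EpiLC (2782), 3245 against EB day 5 (1950) and 3843 against EB day 7 (2465). With no minimum difference they were, in the same order, 7624, 3223, 1790, 4138, 2089, 3902, 8228, 6944, 8648, 6493 and 7540, and 10655 for EpiSC against MEF (5286). Members called with a pseudocount of 0.1 FPKM were 3 at EpiLC against ESC (1), 5 at EB day 7 against EB day 6 (3), and for EpiSC 4 against EpiLC (2), 4 against EB day 7 (2) and 5 against MEF (3). With no minimum difference they were 3 at EpiLC against ESC, and for EpiSC 5 against EpiLC, 4 against EB day 7 and 5 against MEF. With the 2 groups alone 168 genes were called at EB day 4 against EB day 3 and 4 members (7) at EB day 6 against EB day 5. Project A alone gave 146 genes at EB day 3 against EpiLC and 221 at EB day 4 against EB day 3, and project B alone 1 member at EB day 7 against EB day 6. Leaving out 1 library gave 244 to 446 genes at EB day 3 against EpiLC, the most without EB day 3 replicate 1, and 1 to 3 members at EB day 7 against EB day 6, 1 without EB day 6 replicate 1 or EB day 6 replicate 3. The causes were not tested.

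Low values rest on few reads, and the smallest value of Msgn1 above 0 was 0.394 FPKM. Project and group cannot be told apart where EpiSC are set against MEF. EpiLC and the EB days hold libraries of both projects, but where EpiSC are set against them, cell line, strain label and culture conditions cannot be told apart.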
